A study of Mus musculus with 6 samples.

Results

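The mitochondrial genome encodes 7 subunits of respiratory complex I, and the 7 rows of the count table that carry the symbols mt-Nd1, mt-Nd2, mt-Nd3, mt-Nd4, mt-Nd4l, mt-Nd5 and mt-Nd6 are described here, out of 32061 genes in the table. They were taken by symbol, and they were picked for description after the difference between the groups was known, in particular the low level of mt-Nd3, so their values in that comparison are given without a test. The 6 samples were mouse biliary epithelium, the lining of the bile ducts, expanded from hand-picked ducts as organoids over 4 to 5 passages before flat culture on collagen, and their messenger RNA was sequenced. The 3 cilia-depleted samples had received 4OHT, the usual short form of 4-hydroxytamoxifen, and the 3 cilia-competent samples had not. The sources used here do not give strain, age or genotype, including any Cre transgene and the gene it deletes. Whether the 3 samples per group were independent cultures or mice was not stated either, so standard errors and p-values reflect sample-to-sample spread that may be technical. Exposure to 4OHT and loss of cilia coincided in every sample and cannot be told apart.

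Complex I, the NADH:ubiquinone oxidoreductase, takes electrons from NADH, passes them to ubiquinone and pumps protons across the inner mitochondrial membrane. Its mitochondrially encoded subunits form the core of the membrane arm, while all of its other subunits are encoded in the nucleus and imported. ND2, ND4 and ND5 are the antiporter-like subunits that carry protons, ND1 forms much of the ubiquinone-binding chamber, and ND3, ND4L and ND6 are small subunits that link that chamber to the proton path. Mammalian mitochondrial mRNAs are cut from long transcripts that run around nearly the whole genome, mostly by excision of the tRNAs that lie between them, so the final amount of each mRNA depends on its processing and stability as well as on transcription. ND4L and ND4 stay together on a single mRNA, as do ATP8 and ATP6. ND6 is the only protein encoded by the light strand, and in human cells its mRNA lacks the long poly-A tail of the others.

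In the GRCm38 annotation (GENCODE M21) the genes lie on the mitochondrial chromosome at chrM:2751-3707 (mt-Nd1, 957 nt), chrM:3914-4951 (mt-Nd2, 1038 nt), chrM:9459-9806 (mt-Nd3, 348 nt), chrM:9877-10173 (mt-Nd4l, 297 nt), chrM:10167-11544 (mt-Nd4, 1378 nt) and chrM:11742-13565 (mt-Nd5, 1824 nt), all on the plus strand, and at chrM:13552-14070 on the minus strand (mt-Nd6, 519 nt). Each is annotated as 1 exon. The first 300 bases of mt-Nd3, chrM:9459-9758, and the whole of mt-Nd4l are shown because these genes have nearly the same length and lie next to each other, yet had different values between the groups. In mt-Nd3 the capitals mark the first codon, and in mt-Nd4l they mark the 7 bases, chrM:10167-10173, that also open mt-Nd4. The start of mt-Nd4, chrM:10167-10226, is shown with the same bases in capitals.
mt-Nd3 start: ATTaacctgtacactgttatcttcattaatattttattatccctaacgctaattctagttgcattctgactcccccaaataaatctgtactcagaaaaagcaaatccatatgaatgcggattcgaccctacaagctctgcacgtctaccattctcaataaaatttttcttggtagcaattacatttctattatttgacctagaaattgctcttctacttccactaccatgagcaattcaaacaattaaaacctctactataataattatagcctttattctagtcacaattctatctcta
mt-Nd4l: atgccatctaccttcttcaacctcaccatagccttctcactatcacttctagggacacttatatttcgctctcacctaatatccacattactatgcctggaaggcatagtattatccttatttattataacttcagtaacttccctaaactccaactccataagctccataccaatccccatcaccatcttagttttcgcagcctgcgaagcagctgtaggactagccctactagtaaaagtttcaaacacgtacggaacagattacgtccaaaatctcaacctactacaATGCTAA
mt-Nd4 start: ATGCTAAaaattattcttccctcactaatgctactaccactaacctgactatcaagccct

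The ends of 3 genes bear on how reads are assigned. The annotated mt-Nd4 sequence stops at a single T (in capitals) in place of a full stop codon, which polyadenylation is known to complete. The last 14 bases of mt-Nd5 and of mt-Nd6, chrM:13552-13565, are the same stretch read from opposite strands (in capitals). The library kit keeps the strand of the RNA, per the labels' protocols, but whether counting used the strand is not given in the sources used here, so in this stretch, and wherever RNA of the other strand crosses mt-Nd6, reads of mt-Nd6 and of that RNA cannot be told apart.
mt-Nd4 end: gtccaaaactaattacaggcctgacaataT
mt-Nd5 end: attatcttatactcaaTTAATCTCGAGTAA
mt-Nd6 end: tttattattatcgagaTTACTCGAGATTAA

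The libraries held 26293486 to 36998935 counts in the depleted group and 32199606 to 36093068 in the competent group, and member counts ran from 380 (mt-Nd6) to 55205 (mt-Nd4), both in depleted libraries. Of the 7 biliary markers, all were above 1 CPM (library-scaled counts, with TMM factors, on the usual CPM scale) on average, with a summed level of 6577 to 7196 CPM in depleted and 7019 to 7219 CPM in competent samples, although Krt19 was low at 7.6 to 9.77 CPM in depleted and 11.5 to 13.7 CPM in competent samples. Markers of other liver cells summed to 13.6 to 14.8 CPM in depleted and 16.3 to 22.9 CPM in competent samples for hepatocytes and to 45.4 to 51.3 CPM in depleted and 50.5 to 50.8 CPM in competent samples for leukocytes. The sums were at most 3.48 CPM in depleted and 1.57 CPM in competent samples for mesenchymal cells, and 0.436 CPM in depleted and 0.141 CPM in competent samples for endothelium. The leukocyte sum was mostly Csf1r, and Ptprc, their defining marker, did not exceed 0.312 CPM in depleted or 0.186 CPM in competent samples; the part of these cells in the results was not tested. Wdr35, taken as the targeted gene from knowledge of the study and not from the labels, had 26.2 to 29.3 CPM in depleted and 31.9 to 35.5 CPM in competent samples, which does not resolve a deleted exon.

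The 7 mRNAs showed 3 patterns. One, mt-Nd3, was more than 5-fold lower in the cilia-depleted cells, mt-Nd1 and mt-Nd2 were lower by less than 2-fold, and mt-Nd4l, mt-Nd4, mt-Nd5 and mt-Nd6 had overlapping groups. The groups did not overlap, with the depleted samples lower, for 3 of the 7, against 36.1% of the 13839 genes tested, and 0 of the 7 were higher without overlap, against 36.4%. At an adjusted p below 0.05, 69.2% of all genes tested were called in either direction. These counts describe the comparison that the genes were chosen on, and nothing is read from them about the 7. In all of these bulk values, fewer mitochondria or less mitochondrial DNA per cell and less mRNA per mitochondrion cannot be told apart, nor can fewer cells of a type and less RNA per cell.

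**Figure D1:**
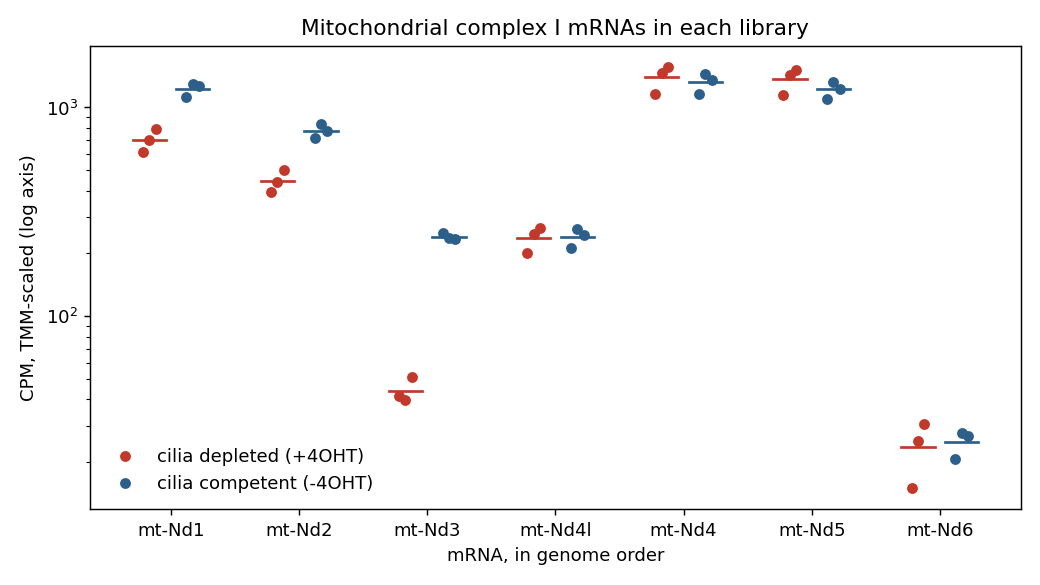
TMM-scaled CPM (log axis) of the 7 mRNAs in each library, cilia-depleted samples left and cilia-competent samples right, with a bar at each mean (n = 3 each). For mt-Nd3 the depleted samples sit at 39.9 to 51.2 CPM and the competent samples at 235 to 249 CPM, while the groups of mt-Nd4l, mt-Nd4, mt-Nd5 and mt-Nd6 overlap.

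For mt-Nd3, whose product carries the flexible loop at the ubiquinone-binding chamber, the counts were 1047, 1279 and 1807 in the depleted samples and 8497, 8372 and 8844 in the competent samples. This corresponded to 41.5, 39.9 and 51.2 CPM in depleted cells, against 249, 237 and 235 CPM in competent cells. Every depleted sample was thus far below every competent one. The means were 44.2 ± 6.11 CPM in depleted and 240 ± 7.92 CPM in competent cells (SD, n = 3 each), a log2 change of -2.44 (SE 0.076) or a level 5.43-fold lower in depleted cells. As a share of all 13 mitochondrial mRNA counts, mt-Nd3 took 0.288% ± 0.0348 in depleted and 1.27% ± 0.186 in competent cells.

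The genes mt-Nd1 and mt-Nd2, which lie nearest the start of the heavy-strand transcript, gave nearly the same values as each other. The mt-Nd1 level was 613, 701 and 790 CPM in depleted cells and 1121, 1298 and 1267 CPM in competent cells. That of mt-Nd2 was 395, 441 and 499 CPM in depleted cells and 712, 835 and 769 CPM in competent cells. For both genes all depleted samples lay below all competent samples. The log2 change was -0.81 (SE 0.080) for mt-Nd1 and -0.79 (SE 0.077) for mt-Nd2, that is, 1.75-fold and 1.73-fold lower in depleted cells. With the trend between change and transcript length removed, these became -0.48 and -0.47, and -0.50 and -0.49 when each mRNA was taken as a share of the 13 mitochondrial mRNAs. The log2 change of mt-Nd3 remained below -2 in both, at -2.27 and -2.14.

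The mRNA that carries ND4L and ND4 was close to the same level in CPM in both groups by either of its genes. The short mt-Nd4l part had 201, 248 and 264 CPM in depleted cells and 211, 262 and 245 CPM in competent cells. The mt-Nd4 part had 1164, 1460 and 1563 CPM in depleted cells and 1163, 1449 and 1356 CPM in competent cells. The groups overlapped for both, and in each group replicate 1 was the lowest. Log2 changes were -0.0088 (SE 0.091) for mt-Nd4l and 0.078 (SE 0.097) for mt-Nd4, and either sign occurred when single samples were left out (-0.092 to 0.10 for mt-Nd4l, -0.011 to 0.19 for mt-Nd4). Differences of this size were within the spread between samples, which does not show that the levels were equal. As a share of the 13 mitochondrial mRNAs both were higher in every depleted sample, at log2 changes of 0.30 for mt-Nd4l and 0.38 for mt-Nd4.

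For mt-Nd5, which encodes the subunit at the far end of the membrane arm, the level was 1150, 1434 and 1519 CPM in depleted cells and 1103, 1328 and 1228 CPM in competent cells, with overlapping groups (log2 change 0.17, SE 0.090). The light-strand gene mt-Nd6 was the scarcest, at 15.05, 25.4 and 30.4 CPM in depleted cells and 20.8, 27.7 and 26.8 CPM in competent cells. Its groups overlapped, with the widest scatter of the 7 (log2 change -0.070, SE 0.18), and its sign changed to 0.15 without depleted replicate 1. The libraries were made from poly-A RNA, and the part of tail length in the level of mt-Nd6, or of the other mRNAs, was not tested. In both groups replicate 1 was the lowest sample for 6 of the 7 mRNAs, mt-Nd3 being the exception, and depleted replicate 1 was also the library with the fewest counts.

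The 13 mitochondrial mRNAs took 1.47% ± 0.203 of all counts in depleted and 1.99% ± 0.195 in competent libraries (SD, n = 3 each), and the 7 complex I mRNAs took 0.403% ± 0.0543 in depleted and 0.527% ± 0.0395 in competent libraries. Within the mitochondrial mRNAs the complex I share was 27.3% ± 0.105 in depleted and 26.5% ± 0.667 in competent cells. Inside that share, mt-Nd1 made up 4.56% ± 0.155 of mitochondrial mRNA counts in depleted and 6.46% ± 0.226 in competent cells, whereas mt-Nd5 made up 8.87% ± 0.103 in depleted and 6.41% ± 0.152 in competent cells. Because the shares add up to a fixed total, a lower share of some mRNAs raises that of the rest.

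Ratios between members within a library do not depend on library scaling. Counts per base of mt-Nd4l over mt-Nd4 were 0.799, 0.789 and 0.784 in depleted and 0.843, 0.838 and 0.837 in competent cells, so the genes of the shared mRNA had a similar ratio in both groups, slightly lower in each depleted sample. The ratio of mt-Nd2 to mt-Nd1 was 0.586 ± 0.00764 in depleted and 0.579 ± 0.0174 in competent cells (SD, n = 3 each). By contrast mt-Nd3 over its neighbour mt-Nd4l was 0.176, 0.137 and 0.165 in depleted cells, against 1.01, 0.772 and 0.819 in competent cells. The ratio of mt-Nd1 to mt-Nd5 was 0.980 ± 0.0432 in depleted and 1.92 ± 0.0537 in competent cells. That of mt-Nd4 to mt-Nd5 was 1.35 ± 0.0107 in depleted and 1.43 ± 0.0345 in competent cells. Like mt-Nd4l over mt-Nd4, it was slightly lower in every depleted sample, without overlap, and of these ratios mt-Nd2 over mt-Nd1 overlapped between the groups.

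**Figure D2:**
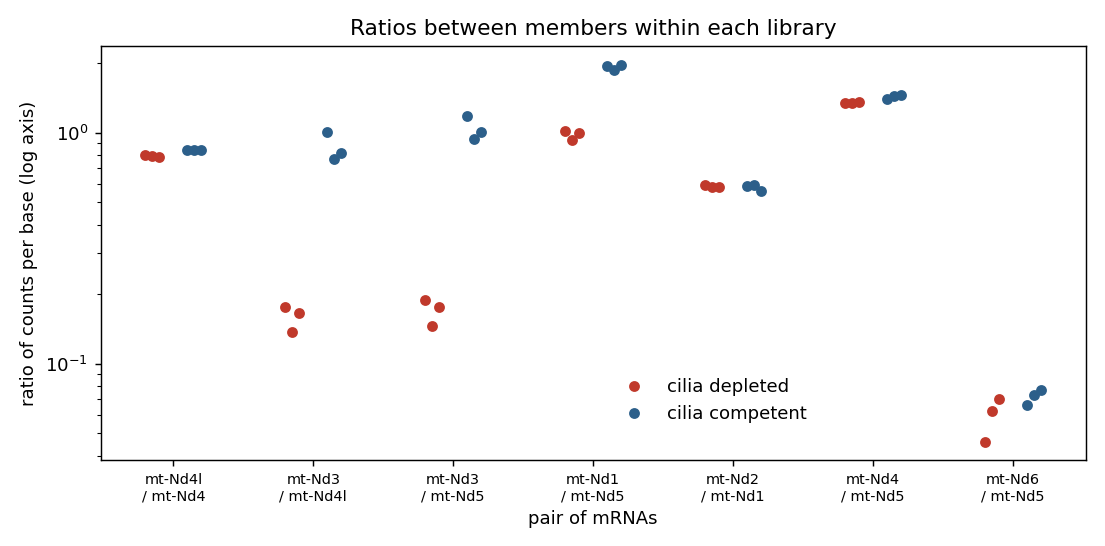
Ratio of counts per base between members (log axis) in each library, cilia-depleted samples left and cilia-competent samples right. The ratios mt-Nd4l / mt-Nd4 and mt-Nd2 / mt-Nd1 are nearly level between the groups, while mt-Nd3 / mt-Nd4l is 0.137 to 0.176 in depleted and 0.772 to 1.01 in competent cells.

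Levels of different mRNAs were compared per kilobase of gene. In depleted cells the order was mt-Nd4 (1013 ± 150 CPM per kilobase), mt-Nd4l (800.1 ± 111), mt-Nd5 (749.7 ± 106), mt-Nd1 (733 ± 92.6), mt-Nd2 (429 ± 50.3), mt-Nd3 (127 ± 17.6) and mt-Nd6 (45.5 ± 15.1). The first 4 overlapped with their neighbours in that order, and the last 3 were separate. In competent cells mt-Nd1 was highest (1284 ± 98.4 CPM per kilobase), followed by mt-Nd4 (959.8 ± 106), mt-Nd4l (806 ± 86.3), mt-Nd2 (744 ± 58.9), mt-Nd3 (691 ± 22.7) and mt-Nd5 (669 ± 61.8), with overlap between each neighbouring pair from mt-Nd4 to mt-Nd5, and then mt-Nd6 (48.4 ± 7.21). In competent cells 6 of the 7 mRNAs therefore lay within 2-fold of each other per base, and mt-Nd3 stood among them, whereas in depleted cells mt-Nd3 was nearer to mt-Nd6 than to the others.

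Change and mRNA length were then set side by side. Ordered by gene length alone, the shortest member, mt-Nd4l, was level between the groups while mt-Nd3, only slightly longer, was the lowest. With mt-Nd4l and mt-Nd4 given the 1668 nt from the start of mt-Nd4l to the end of mt-Nd4 as the length of their shared mRNA, Spearman's rho between length and log2 change over the 7 members was 0.88, against 0.54 with gene lengths. Leaving out mt-Nd6, the light-strand gene, which lies off this order, gave 0.99 and 0.66. Lengths came from the annotated genes, and mRNA ends were not measured for any member. These are descriptions over a few mRNAs from the same 6 libraries, of which mt-Nd4l and mt-Nd4 share a transcript.

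The other 6 mitochondrial mRNAs extended this comparison. In edgeR's quasi-likelihood test, adjusted over all genes, mt-Cytb fell (log2 change -1.13, SE 0.090, adjusted p = 1.07e-07), as did mt-Co3 (-1.0), mt-Atp8 (-0.91), mt-Atp6 (-0.80) and mt-Co2 (-0.79), with adjusted p between 1.07e-07 and 7.09e-06. With the length trend removed all 5 calls held, at log2 changes of -0.82 for mt-Cytb, -0.68 for mt-Co3, -0.87 for mt-Atp8, -0.50 for mt-Atp6 and -0.49 for mt-Co2. That removal used the length of each gene, 204 nt for mt-Atp8 and 681 nt for mt-Atp6. It did not use the 842 nt of their shared mRNA, so these genes were corrected by different amounts. Reads of mt-Co3, mt-Atp6 and mt-Co2 match nuclear copies over nearly their whole length. The 5 genes that fell encode cytochrome b of complex III and subunits of cytochrome oxidase and ATP synthase, on mRNAs of 684 to 1144 nt. The longest of the 6, mt-Co1 (1545 nt), passed the threshold as higher (log2 change 0.29, SE 0.10, adjusted p = 0.0242), although its groups overlapped at 5532, 7055 and 7419 CPM in depleted and 4669, 6081 and 5603 CPM in competent cells. That call was lost with DESeq2 (adjusted p = 0.129) and, in edgeR, without depleted replicate 2 (0.0939), depleted replicate 3 (0.115) or competent replicate 1 (0.0973), all adjusted p. As a share of mitochondrial mRNA counts mt-Co1 took 43.2% ± 0.917 in depleted and 28.5% ± 0.689 in competent cells. Over all 13 genes rho between the length of the mRNA and log2 change was 0.60, and with gene length 0.45. Counting each shared mRNA once, it was 0.55 over 11 mRNAs. Without mt-Nd6 these values were 0.69, 0.51 and 0.66. The relation is not strict, since mt-Cytb was lower than mt-Nd1 and mt-Nd2 although it is longer than both.

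**Figure D3:**
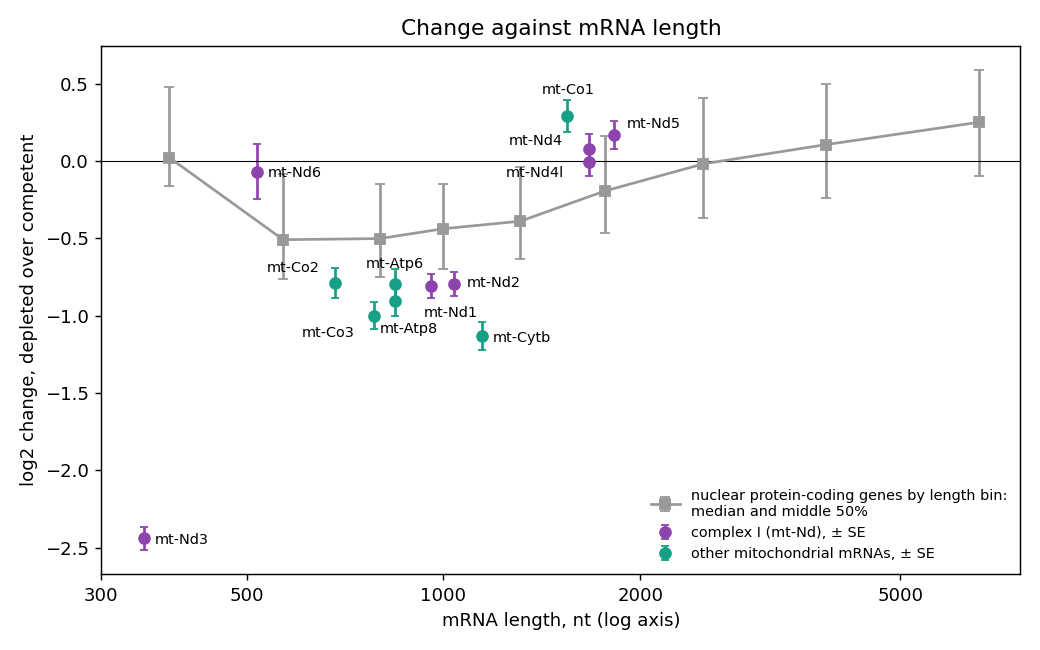
Log2 change (depleted over competent, ± SE) of the 13 mitochondrial mRNAs against mRNA length in nt (log axis), with the genes of each shared mRNA at the length of that mRNA, and the median and middle 50% of nuclear protein-coding genes by length bin in grey. The 4 genes on mRNAs of 1545 nt or more lie between -0.0088 and 0.29, and mt-Nd3, at 348 nt, lies at -2.44, below every nuclear gene of its bin.

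Nuclear genes differed by transcript length as well. Over 12780 nuclear protein-coding genes Spearman's rho of log2 change with transcript length was 0.34, a description across genes, which are not independent replicates. Among the 345 genes with transcripts of 900 to 1100 nt the median log2 change was -0.44, and 64 of them were lower than mt-Nd1 and as many lower than mt-Nd2. Among the 1372 genes of 1500 to 2000 nt the median was -0.20, and 1033 of them were below mt-Nd5. The 26 genes under 400 nt had a median of 0.022 and none was as low as mt-Nd3. By its gene length of 297 nt mt-Nd4l also falls in this bin, and 12 of the 26 were below it. By the 1668 nt of its shared mRNA, 896 of the 1372 genes of 1500 to 2000 nt were below mt-Nd4l. Taking out the nuclear trend with length moved mt-Nd3 to -2.27, mt-Nd4l to 0.12, mt-Nd4 to 0.34, mt-Nd5 to 0.29 and mt-Nd6 to 0.18 on the log2 scale. Gene lengths were used for this, 297 nt for mt-Nd4l and 1378 nt for mt-Nd4, so the genes of their shared mRNA were corrected by different amounts. The sources used here do not give insert sizes or RNA integrity, and their part in these values was not tested.

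The values did not rise or fall steadily along the genome, although some neighbours were alike. The low mt-Nd3 lies between mt-Co3 (log2 change -1.0) and mt-Nd4l (-0.0088), and mt-Nd5 lies upstream of mt-Cytb (-1.13) on the same strand. The genes before mt-Nd4l on the plus strand were all lower in depleted cells except mt-Co1, and mt-Nd4l, mt-Nd4 and mt-Nd5 form a run of neighbours with values near 0.

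**Figure D4:**
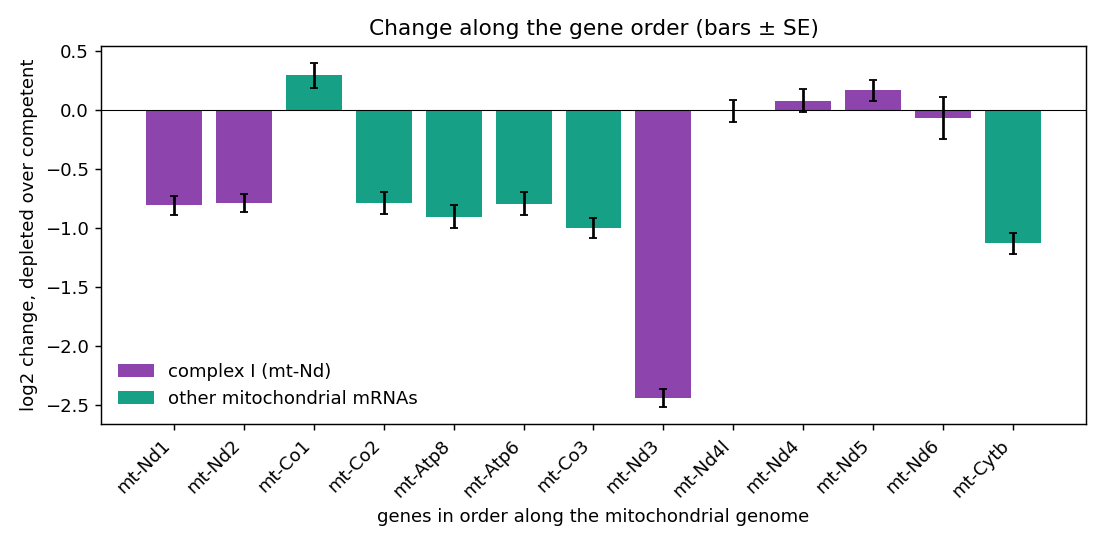
Log2 change (depleted over competent, bars ± SE) of the 13 mitochondrial mRNAs in their order along the mitochondrial genome, complex I genes in purple. The run from mt-Nd4l to mt-Nd6 lies near 0, between mt-Nd3 at -2.44 and mt-Cytb at -1.13.

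Several of these genes have near-identical copies in the nuclear genome, so reads can be shared. Of all 50-base windows of each gene, those found in no other annotated transcript were 100% for mt-Nd1 and mt-Nd6, 92.4% for mt-Nd5, 91.8% for mt-Nd2, 37.8% for mt-Nd4, 2.01% for mt-Nd3 and 1.21% for mt-Nd4l. The matching copies of mt-Nd3, mt-Nd4l and mt-Nd4 are the pseudogenes Gm28438 (chr1:24612775-24613119), Gm10222 (chr1:24612407-24612700) and Gm28439 (chr1:24611535-24612410), which lie side by side on chromosome 1. Gm10222 had 5032, 7939 and 9278 counts in depleted and 7168, 9194 and 9157 counts in competent samples, which is 99.3% to 99.6% of the mt-Nd4l count in every library. The pair of rows therefore hold nearly the same number, whether reads matching both were counted at both is not given in the sources used here, and the mt-Nd3, mt-Nd4l and mt-Nd4 values are uncertain to that extent. The same holds for mt-Co2, mt-Co3, mt-Atp6 and mt-Co1, of whose windows 0%, 0.136%, 0.475% and 48.9% were found in no other annotated transcript, whereas all windows of mt-Atp8 and mt-Cytb were. Gm10925, the copy of mt-Atp6, had 128% to 131% of the mt-Atp6 count in every library. The count table holds no row for Gm28438 or Gm28439. The part of such copies in the mt-Nd3 value was not tested.

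The nuclear genes of complex I were lower throughout. All 37 nuclear subunit genes listed were tested, and all 37 fell in the depleted cells at an adjusted p below 0.05 in edgeR's quasi-likelihood test, where 34.3% of all genes tested fell. Their log2 changes ran from -1.40 to -0.27 with a median of -0.70, against a median of -0.0057 over all genes tested. The count was 36 with the length trend removed, with a median of -0.44, and 37 under every other alternative run. The median transcript of the 37 was 908 nt long, against 3021 nt over all genes tested, and 201 of 291 nuclear protein-coding genes of 700 to 900 nt fell. In contrast to the mitochondrially encoded members, the range of the nuclear subunits did not reach 0.

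Of the 8 genes of the N module, which oxidises NADH, all fell, with a median log2 change of -0.53. Ndufs6, an accessory subunit of this module, had 29.2, 28.9 and 28.3 CPM in depleted and 55.4, 53.1 and 57.2 CPM in competent cells (log2 change -0.94, SE 0.049, adjusted p = 1.99e-09). Ndufs4, whose loss is a known cause of complex I deficiency, had a log2 change of -0.73, Ndufa12 of -0.61 and Ndufa2 of -0.54. The Q module, which hands electrons to ubiquinone beside ND1 and ND3, had 8 of 8 lower with a median of -0.63. Its largest fall was in Ndufa5, at 7.8, 7.88 and 7.02 CPM in depleted and 18.4, 16.8 and 16.99 CPM in competent cells (log2 change -1.20, SE 0.081), followed by Ndufs8, an iron-sulphur subunit (-0.86), Ndufa9 (-0.77) and Ndufa7 (-0.68).

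The membrane arm, into which the 7 mitochondrial subunits are built, had 21 of 21 nuclear accessory genes lower, with a median log2 change of -0.77. Ndufb3, at 13.4, 16.2 and 16.9 CPM in depleted and 40.4, 42.0 and 40.9 CPM in competent cells, fell most (log2 change -1.40, SE 0.073, adjusted p = 1.80e-09 by edgeR). Ndufb7 (-1.16), Ndufb8 (-1.07) and Ndufs5 (-1.04) came next. No sample of either group overlapped with the other group for these genes. Of 19 assembly factors tested, 14 fell and 2 rose, while 3 missed the threshold (median log2 change -0.34), where 34.3% of all genes fell and 34.9% rose. The largest falls were in Dmac1, needed for the far part of the membrane arm (-0.91), Tmem70 (-0.79), Ndufaf3 (-0.77) and Nubpl, which delivers iron-sulphur clusters (-0.73).

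**Figure D5:**
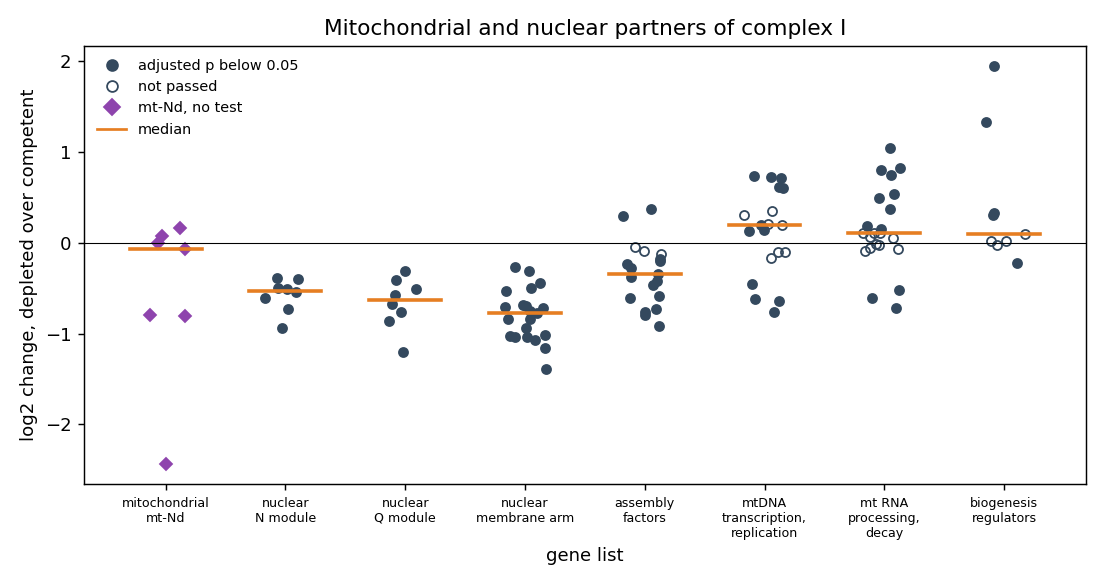
Log2 change (depleted over competent) of each gene by list, with a bar at the list median; filled points passed an adjusted p below 0.05 and open points did not, and the mt-Nd genes (diamonds) carry no test. All 37 nuclear subunit genes lie below 0, while the mt-Nd genes run from -2.44 to 0.17.

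Genes that make and process mitochondrial RNA moved in both directions. Of 19 genes for transcription and replication of mitochondrial DNA, 8 rose and 4 fell, while 7 missed the threshold (median log2 change 0.19), against 34.9% and 34.3% of all genes. With upper-quartile scaling 5 rose and 6 fell. The 4 with the largest change were Mrpl12, a ribosomal protein that also binds the mitochondrial RNA polymerase (-0.76), Polg2, the accessory subunit of the DNA polymerase (0.73), the rRNA methyltransferase gene Tfb1m (0.73) and the exonuclease gene Mgme1 (0.72). Another pair was chosen after their values were seen, Polrmt, the RNA polymerase itself, which rose (log2 change 0.61), and Tfam, which packages the genome (-0.10, adjusted p = 0.099 by edgeR).

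Of 22 genes for processing, stability and decay of mitochondrial RNA, 9 rose and 3 fell, while 10 missed the threshold (median log2 change 0.10). The share that rose, 40.9%, was close to the 34.9% of all genes tested that rose, and 13.6% fell, against 34.3% of all genes. Trmt10c, a subunit of the RNase P that cuts the tRNAs out of the long transcripts, had 48.5, 49.5 and 48.8 CPM in depleted and 23.1, 22.9 and 25.5 CPM in competent cells (log2 change 1.04, SE 0.054, adjusted p = 1.80e-09 by edgeR). Supv3l1, the helicase of the RNA-degrading complex, rose (0.82), as did Fastkd3 (0.80), an RNA-binding protein gene, and Mtpap, the poly-A polymerase of mitochondria (0.75). Slirp and Lrpprc, whose products together stabilise mitochondrial mRNAs, were chosen after their values were seen. Slirp fell (-0.61), while Lrpprc had 53.0 ± 0.933 CPM in depleted and 56.6 ± 1.08 CPM in competent cells (adjusted p = 0.0703 by edgeR). Among 9 regulators of mitochondrial biogenesis 4 rose and 1 fell, while 4 missed the threshold (median log2 change 0.10). With so few genes, the 44.4% that rose stands near the 34.9% of all genes that did. Ppargc1a, a co-activator that drives biogenesis, had 2.96 ± 0.329 CPM in depleted and 1.2 ± 0.253 CPM in competent cells (log2 change 1.33), and its relative Ppargc1b, which was scarce, had 1.00 ± 0.304 CPM in depleted and 0.251 ± 0.0753 CPM in competent cells (log2 change 1.95). Nrf1 rose (0.33), and Gabpb2 rose (0.30), a call lost with the length trend removed (log2 change 0.011).

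Nuclear genes with the most similar profiles were found by the root mean square distance between log2 CPM profiles over the 6 samples, each centred on its own mean, among 5974 nuclear genes of mean log2 CPM of at least 5. Closest to mt-Nd3 were Ly6a, a surface antigen gene, at a distance of 0.16, and Crip1 at 0.23, both less low than mt-Nd3 (log2 changes -2.27 and -2.11). For mt-Nd1 the closest were Tpd52l1 (0.049) and Aida (0.072), and for mt-Nd2 Tpd52l1 (0.055) and Sult1c2 (0.062). For mt-Nd4l they were Fam84b (0.078) and Selenop (0.082), for mt-Nd4 Fam84b (0.093) and Cep350 (0.099), and for mt-Nd5 Fam208b (0.089) and Aacs (0.090). For mt-Nd6 the nearest, Zbtb41 and Arhgap5, were both at 0.25. Between members the distance was 0.029 for mt-Nd1 with mt-Nd2, 0.044 for mt-Nd4l with mt-Nd4 and 0.048 for mt-Nd4 with mt-Nd5. Each of these distances was smaller than that of either member to any nuclear gene so ranked. Genes with a symbol of Gm with digits were not ranked, which left out Gm10222, the nuclear copy of mt-Nd4l. Its counts nearly equal those of mt-Nd4l in every library, so nothing is read from this ranking about mt-Nd4l and nuclear genes.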

How the data were processed

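Poly-A RNA of 6 samples was sequenced after library preparation with a directional kit, per the labels' protocols. The submitters' processing notes name STAR 2.7.1a, featureCounts, DESeq2 1.34.0 and the build GRCm38, without roles; read length, annotation and the treatment of strand and of reads with several matches are not given in the sources used here. Raw counts per gene, not normalized, were what the authors deposited. KO columns were read as cilia depleted and WT columns as cilia competent, by group and replicate number. Of 32061 genes, 32009 were found in GENCODE M21, which gave symbols, lengths, coordinates and sequences; 0 columns belonged to other samples. Of 37 mitochondrial genes annotated, the count table holds 13, all analysed here, and it has no rows for the rRNAs and tRNAs.

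Counts were tested in edgeR 4.0.16 (R 4.3.3) with filterByExpr, TMM scaling, the group as the only term, glmQLFit and glmQLFTest, two-sided, and Benjamini-Hochberg adjustment over all 13839 genes tested, with a threshold of 0.05. Fold changes are depleted over competent unless stated, and a standard error is the log2 change divided by the root of the F statistic. The members and lists were chosen with earlier results of these data known. Named genes are all members, the other mitochondrial mRNAs, up to 4 genes per list with the largest change past the threshold, and the 2 nearest profiles per member among genes whose symbol is not Gm with digits or ending in Rik; others are said to be chosen after their values were seen. Length bins were set after the data were seen. Length is that of the principal or else longest transcript. Chi-square over degrees of freedom was 5.33 to 9.44 for pairs within a group, more than a second sequencing of the same library would give. This measure cannot tell separate cultures from libraries made of the same RNA. In simulated counts 40% of 50 genes changed 1.2-fold, 92% of 50 changed 1.5-fold and 0.044% of unchanged genes were called. In that run of 13605 genes most were unchanged, whereas 69.2% of genes tested were called in the data. The rate of calls among unchanged genes was not tested for counts in which most genes change. Alternatives were RLE and upper-quartile factors, DESeq2 1.42.0, limma-voom (limma 3.58.1), no count filter, library sizes from nuclear genes, the replicate block, leaving out each sample, removal of the length trend by a loess curve per library, shares of mitochondrial mRNA, and windows of 75 and 100 bases.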

Additional observations from a re-analysis of the deposited data

How the results depend on the processing

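The number of genes called was 9576, and 8929 to 9333 with a sample left out. The median log2 change of the 7 members, -0.070, took either sign: it was 0.12 with the length trend removed, 0.17 as a share of mitochondrial mRNA, and -0.29 (without depleted replicate 3) to 0.10 (without depleted replicate 1) with a sample left out; the cause was not tested. The log2 change of mt-Nd3 stayed between -2.56 and -2.27, that of mt-Nd1 between -0.90 and -0.48 and that of mt-Nd2 between -0.88 and -0.47 over the 14 alternatives fitted to all genes. In these, values for mt-Nd4l, mt-Nd4 and mt-Nd6 took either sign, and that of mt-Nd5 was 0.083 to 0.29. Genes of mitochondrial DNA transcription and replication that rose numbered 8, 5 with upper-quartile scaling and 6 to 8 with a sample left out. Assembly factors that fell numbered 14, and 10 with the length trend removed. In longer windows of 75 and 100 bases the median share over the 7 members found in no other transcript was 94.3% and 96.8%, against 91.8%. The share stayed low for mt-Nd3 (2.19% and 2.41%), mt-Nd4l (1.345% and 1.515%) and mt-Nd4 (38.5% and 39.2%). Over all genes same-numbered samples did not deviate together (correlations -0.028, 0.013 and -0.016), so the numbers were not taken as pairs, although replicate 1 was lowest in both groups for 6 of the 7 members. With the replicate block 9526 genes were called, all 37 nuclear subunits fell, and the adjusted p of mt-Co1 in edgeR was 0.000785, against 0.0242. Counts were lowest for mt-Nd6, at 380 to 1073 counts in depleted and 709 to 1008 in competent libraries.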
